A study of Mus musculus with 8 samples.

Results

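The Ikaros family consists of 5 zinc finger transcription factor genes, Ikzf1 (Ikaros), Ikzf2 (Helios), Ikzf3 (Aiolos), Ikzf4 (Eos) and Ikzf5 (Pegasus). They were taken by gene symbol from a table of 34094 genes measured by RNA sequencing in the CA1 field of the mouse hippocampus, and all 5 were found there. All 5 also passed the filter on low values that left 26135 genes for testing, which asks for at least 1 normalized read in at least 4 libraries. The mutant animals carried a conditional knockout of Brpf1 (cKO), which the labels also call a Brpf1 knockdown and the series title calls hippocampus-specific. The animals they were set against were wild type (WT). All were C57BL/6 mice of 2 months with no further treatment named, and each group has 4 libraries. The sources used here name neither the Cre driver nor the exons removed nor the sex of the mice, and a protocol speaks of 3 pairs of mice where the labels list 4 libraries a group. Whether each library is a separate mouse is thus not known, and p-values measure only how far these libraries spread, which may be technical.

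Ikaros proteins bind DNA through zinc fingers near the N-terminus and pair with each other through zinc fingers at the C-terminus. They are best known from lymphocyte development, where they recruit chromatin complexes such as NuRD, a remodeller with histone deacetylase activity, to the genes they bind. In the brain, Helios is known from the maturation of a subset of CA1 pyramidal neurons and of striatal medium spiny neurons in mice, and mice without it have been described as impaired in spatial memory. BRPF1 holds together complexes in which KAT6 enzymes acetylate histones.

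The family was chosen by the deposited difference between cKO and WT at 1 of its members, Ikzf2. In the authors' deposited table Ikzf2 has a log2 fold change of −1.37 and a false discovery rate (FDR) of 0.0499988 for cKO over WT, which places it 224th of the 224 genes under an FDR of 0.05. The gene before it in the authors' deposited table is Cyp4a10 with an FDR of 0.0492, and the next one, just outside, is Snap47 with an FDR of 0.0502. The cKO and WT levels of Ikzf2 below are therefore a description, and no test is read from them. Of the 5 family members, 1 is called in the authors' deposited table, where 0.657% of all genes are called in either direction and 0.305% with cKO lower.

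A normalized read is a read corrected for the size factor of its library. Fold changes were taken on log2(normalized reads + 1), where adding 1 shrinks the fold of a gene with few reads. Reads on genes ranged from 40330226 to 46559795 per cKO library and from 42346644 to 49897832 per WT library. Brpf1 itself had 848, 1032, 897 and 1004 normalized reads in the cKO libraries, against 1358, 1451, 1473 and 1380 in the WT libraries, so the groups did not overlap (log2 fold change −0.59, SE 0.089, limma adjusted p = 0.132). The authors' deposited FDR for Brpf1, from their own test, was 1.5e-07, which places it 10th of all genes. WT replicate 1 stood apart in holding 61 reads of 4 Y-linked genes, out of 42881048 reads on genes, where no other library held more than 9. Without that library the log2 fold change of Ikzf2 was −1.39 (SE 0.42). All 10 CA1 pyramidal markers examined had reads in every library, and their summed level was 22706 to 31447 normalized reads in cKO and 20959 to 30045 in WT.

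Ikzf2 (ENSMUSG00000025997, on chromosome 1) had 70.9, 78.3, 216 and 226 normalized reads in cKO replicates 1 to 4, against 318, 342, 312 and 364 in WT replicates 1 to 4. Every cKO library was below every WT library, and the cKO libraries lay in 2 pairs far apart, while the WT libraries lay close together. Relative to the WT mean, cKO replicates 1 and 2 stood at 21.2% and 23.4%, and cKO replicates 3 and 4 at 64.7% and 67.6%. The group means were 148 ± 84.8 in cKO and 334 ± 23.9 in WT (SD, n = 4), or 44.2% of the WT level. The log2 fold change was −1.37 (SE 0.37). In reads, these values rest on 67, 78, 198 and 236 reads in the cKO libraries and on 306, 337, 336 and 422 in the WT libraries, so counting error is small beside the gap between the pairs. In bulk tissue, fewer cells that express the gene and less RNA per cell cannot be told apart. Wide gaps between libraries of a group also occurred at other genes in WT. Foxp1, for example, had 481, 2507, 2772 and 520 normalized reads in WT replicates 1 to 4. Whether the split at Ikzf2 is technical was not tested.

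**Figure D1:**
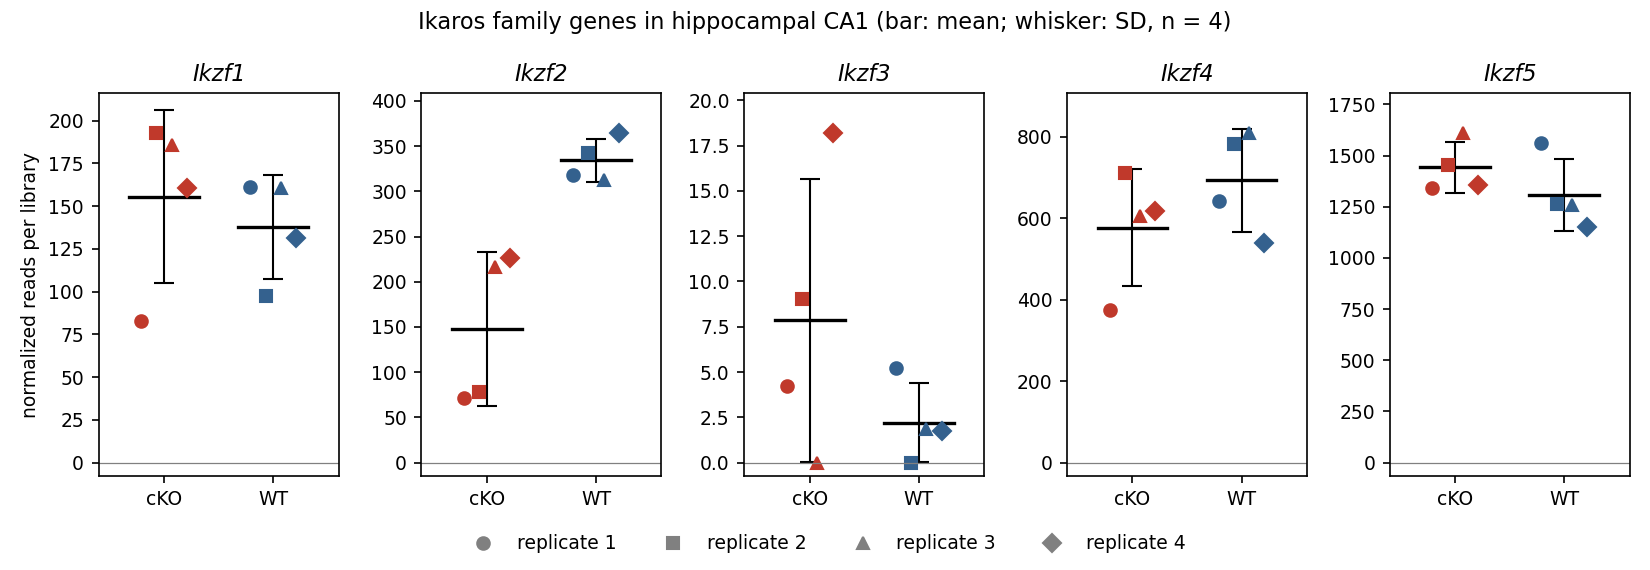
Normalized reads of the 5 Ikaros family genes in the 4 cKO libraries (red) and the 4 WT libraries (blue), on a linear axis of its own for each gene, with a marker shape per replicate number, the mean as a bar and the SD as a whisker. Ikzf2 is the gene whose groups do not overlap, with cKO replicates 1 and 2 at 70.9 and 78.3 and cKO replicates 3 and 4 at 216 and 226.

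The FDR by which Ikzf2 was chosen depends in part on the spread within groups, so that spread is also given as a description. Its SD on the log2 scale was 0.90 in cKO and 0.10 in WT (n = 4 each). Ikzf2 was set beside 1678 genes whose mean over all 8 libraries lay within 0.5 log2 units of its own, 7.70. Its group means, 7.02 in cKO and 8.39 in WT, lay outside that window, so the likeness in level holds over all libraries only. Among the 1678 genes, the median SD was 0.27 in cKO and 0.24 in WT. In cKO 54 of these genes, or 3.22%, varied as much as Ikzf2, whereas in WT 92.7% varied at least as much. Among genes of like mean over all 8 libraries, Ikzf2 was therefore one of the more variable in cKO and one of the steadier in WT. The spread in cKO does not come from 1 library, since the SD stayed between 0.86 and 0.94 without any 1 of the 4. Brpf1 did not follow the same pairs: its lowest values were in cKO replicates 1 and 3 (848 and 897) and its highest in replicates 2 and 4 (1032 and 1004).

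**Figure D2:**
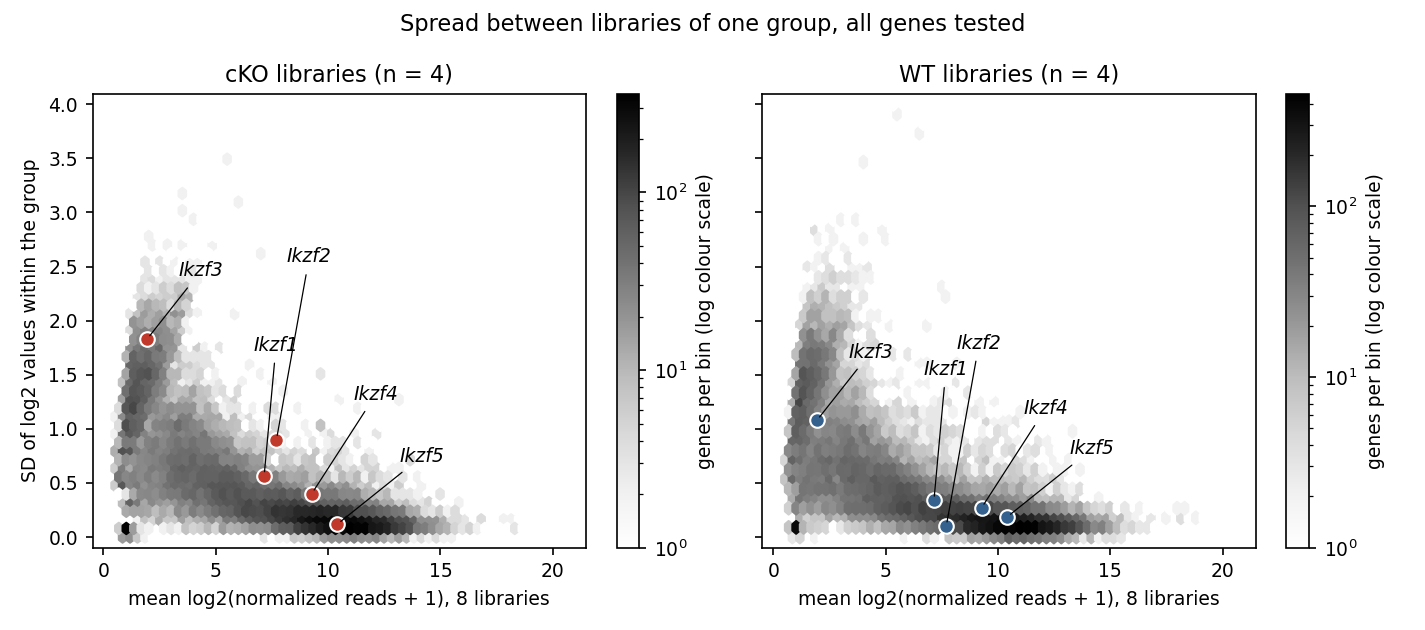
SD of log2 values between the 4 cKO libraries (left) and between the 4 WT libraries (right) against mean log2(normalized reads + 1) over 8 libraries, for the 26135 genes tested as grey bins on a log colour scale, with the Ikaros family marked; a few WT genes lie above the axis. Ikzf2 sits at 0.90 in cKO, above most genes of its level, and at 0.10 in WT, below most of them.

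The other members most like Helios in sequence and function are Ikaros, Aiolos and Eos, the factors that share its DNA-binding fingers. Ikzf1 (ENSMUSG00000018654, chromosome 11), which marks blood-derived cells and is also expressed in microglia, had 82.6, 193, 186 and 161 normalized reads in the cKO libraries, against 161, 97.5, 161 and 131 in the WT libraries. The groups overlapped, and cKO replicate 1 was the lowest of all 8. Means were 155 ± 50.5 in cKO and 138 ± 30.3 in WT (SD, n = 4), with a log2 fold change of 0.13 (SE 0.29). The summed level of 11 microglia markers was also lowest in cKO replicate 1 (14604), against 16832 to 19369 in the other cKO libraries and 14894 to 16656 in WT; its part in the Ikzf1 values was not tested.

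Ikzf4 (ENSMUSG00000002578, chromosome 10), known from regulatory T cells, had 375, 712, 604 and 617 normalized reads in the cKO libraries, against 641, 782, 809 and 540 in the WT libraries. Again cKO replicate 1 was the lowest library, and the other 3 cKO libraries lay within the WT range. Means were 577 ± 143 in cKO and 693 ± 126 in WT (SD, n = 4), with a log2 fold change of −0.28 (SE 0.20). Without cKO replicate 1 that log2 fold change was −0.090 (SE 0.16). A long noncoding RNA gene on the opposite strand, Gm26876, shares 37 exon bases with Ikzf4 and had 36.0 normalized reads in cKO and 42.8 in WT on average.

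Ikzf3 (ENSMUSG00000018168, chromosome 11), a B cell factor, was near the limit of detection. It had 32 reads over the 4 cKO libraries and 9 over the 4 WT libraries, with 4.23, 9.04, 0 and 18.2 normalized reads in cKO and 5.20, 0, 1.86 and 1.73 in WT. Each group has a library with no read, which allows up to 3 reads there, and the groups overlapped. The log2 fold change was 1.10 (SE 0.93), and without cKO replicate 4 it was 0.51. Lymphocyte markers were likewise low, with summed levels of 143 to 287 normalized reads over 12 genes in cKO and 120 to 202.1 in WT. Of these 12, 8 had no read in at least 1 library, and Cd3d, a subunit of the T cell receptor complex, had none in WT and 13 reads over the 4 cKO libraries. Others of the list went the other way: the B cell gene Ms4a1 had 3 reads in cKO and 31 in WT, and Cd79a had 33 in cKO and 66 in WT.

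Ikzf5 (ENSMUSG00000040167, chromosome 7) encodes Pegasus, the most divergent member, which recognises another DNA sequence than the rest. It had the most reads, with 1344, 1455, 1610 and 1359 normalized reads in the cKO libraries and 1559, 1263, 1257 and 1149 in the WT libraries. The groups overlapped through WT replicate 1, and means were 1442 ± 122 in cKO and 1307 ± 176 in WT (SD, n = 4). The log2 fold change was 0.15 (SE 0.11). This value is uncertain, because 4652 of the 5721 exon bases of Ikzf5 are also exon of Pstk, a selenocysteine synthesis gene on the opposite strand (GENCODE vM21), and 183 are shared with the provisional gene model Gm44624. No source used here states whether the counting used strand, so reads of Ikzf5 and Pstk may be mixed. Pstk had 921 normalized reads in cKO and 912 in WT on average, with a log2 fold change of 0.0083 (SE 0.099).

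Reads of the other members are not open to the same doubt. No stretch of 50 bases of any member's transcripts is found in another member, and Ikzf1 and Ikzf3 share none with any annotated transcript of another gene. Ikzf2 shares 97 of its 11844 stretches, or 0.819%, all with the antisense gene Gm29114, which held 5.02 normalized reads in cKO replicate 2, 4.65 in WT replicate 3 and none elsewhere. Ikzf4 shares 0.53% of its stretches, while for Ikzf5 the share is 81.4%.

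Per kilobase of exon, the levels ran in the order Ikzf5, Ikzf4, then Ikzf2 and Ikzf1, then Ikzf3. Ikzf5 had 252 ± 21.4 normalized reads per kilobase in cKO and 228 ± 30.8 in WT, and Ikzf4 had 96.2 ± 23.9 in cKO and 116 ± 21.0 in WT (SD, n = 4). Ikzf2 had 12.7 ± 7.30 in cKO and 28.8 ± 2.06 in WT, and Ikzf1 had 26.9 ± 8.74 in cKO and 23.8 ± 5.24 in WT. Ikzf3 had 0.899 ± 0.892 in cKO and 0.251 ± 0.248 in WT. Ikzf2 and Ikzf1 overlapped in both groups, from 6.11 to 19.5 against 14.3 to 33.4 reads per kilobase in cKO and from 26.9 to 31.4 against 16.9 to 27.9 in WT. Within a library, Ikzf2 was below Ikzf1 in all 4 cKO libraries, whereas in WT it was below in replicates 1 and 3 and above in replicates 2 and 4. The other neighbours in this order did not overlap in either group, with the doubt about Ikzf5 given above.

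Set against the rest of its family within each library, Ikzf2 made up 3.78%, 3.20%, 8.27% and 9.49% of the family's normalized reads in the cKO libraries and 11.9%, 13.8%, 12.3% and 16.7% in the WT libraries. Its ratio to Ikzf4 was 0.189, 0.110, 0.358 and 0.366 in cKO, against 0.497, 0.438, 0.386 and 0.675 in WT. The low pair of cKO libraries thus stayed low on a scale that does not depend on the library's size factor. In the ratio to Ikzf4, cKO replicates 3 and 4 came close to WT replicate 3, but in the share of the family they did not. The ratio of Ikzf2 to Ikzf1 was 0.859, 0.406, 1.16 and 1.40 in cKO, against 1.97, 3.51, 1.94 and 2.78 in WT. These ratios use the same contrast that chose Ikzf2 and are given as a description.

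Across the family, 0 of 5 members passed limma with an adjusted p under 0.05 (Benjamini-Hochberg), where 0.0191% of all genes tested did, and 0 of 5 passed limma-voom on the recovered reads, where 0.0153% did. At an unadjusted limma p under 0.05, 1 of 5 passed in either tool, where 8.67% of all genes did in limma and 8.65% in limma-voom. That is 0 members higher in cKO, where 4.07% of all genes were, and 1 lower, where 4.6% were. The groups did not overlap, with cKO lower, at 1 of 5 members, where 2.35% of all genes tested did so. With cKO higher they did not overlap at 0 of 5, against 2.57% of all genes, and 4.92% of all genes did not overlap in either direction. In each of these counts the member is Ikzf2, and nothing is read from them because the same contrast chose it.

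The nearest protein-coding genes on either side of Ikzf2 are Erbb4 and Spag16. Erbb4, a neuregulin receptor gene, had 4210, 651, 551 and 3895 normalized reads in the cKO libraries, against 3989, 847, 3495 and 3354 in the WT libraries. Its low libraries were cKO replicates 2 and 3 and WT replicate 2, so cKO replicate 2 was low for both genes and the groups overlapped. Spag16, a gene of motile cilia, had 85.7, 135, 68.8 and 109 normalized reads in the cKO libraries and 58.3, 205, 79.0 and 180 in the WT libraries. Log2 fold changes were −0.69 (SE 0.90) for Erbb4 and −0.24 (SE 0.40) for Spag16, with limma adjusted p of 0.863 and 0.894.

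Genes with a profile like that of Ikzf2 were sought among 14270 genes whose log2 values averaged 5 or more. Likeness was the root mean square difference over the 8 libraries of log2 values, each gene relative to its own WT mean. The 5 nearest genes were Phf24, a PHD finger protein gene (0.27), Ahcyl2, a relative of S-adenosylhomocysteine hydrolase (0.39), the membrane protein gene Smim5 (0.41), the zinc finger gene Zfp474 (0.43) and Mak, a kinase of cilia (0.45), where the median over all candidates was 1.14. Phf24 had 1876, 1841, 8984 and 4874 normalized reads in the cKO libraries, against 9181, 9574, 8326 and 9034 in the WT libraries. As with Ikzf2, cKO replicates 1 and 2 were the lowest, at 20.8% and 20.4% of the WT mean, but cKO replicate 3 was at 99.5%. Smim5 had 20.1, 16.1, 27.3 and 31.6 normalized reads in cKO, against 60.3, 98.5, 54.8 and 76.9 in WT, without overlap. This search uses the difference between the groups, which chose Ikzf2.

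A second search took each gene relative to the mean of its own group, and so used only the variation between libraries of a group. Ahcyl2 was nearest (0.085), followed by the guanylate cyclase gene Gucy2e (0.18), Timm22, which encodes a mitochondrial import protein (0.18), the synaptic organiser gene Cbln4 (0.22) and the kinase gene Rps6ka1 (0.23), where the median over all candidates was 0.57. Ahcyl2 had 4401, 4496, 12366 and 12758 normalized reads in the cKO libraries and 11880, 14311, 13769 and 13398 in the WT libraries. Its lower pair is thus the same as that of Ikzf2, while its upper pair lay at 92.7% and 95.6% of the WT mean. Timm22 had 357, 405, 837 and 772 normalized reads in cKO, against 291, 307, 306 and 372 in WT. For Timm22 the lower pair lay near WT and the upper pair at 262% and 242% of the WT mean, so the same split of the cKO libraries went with another direction from WT.

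**Figure D3:**
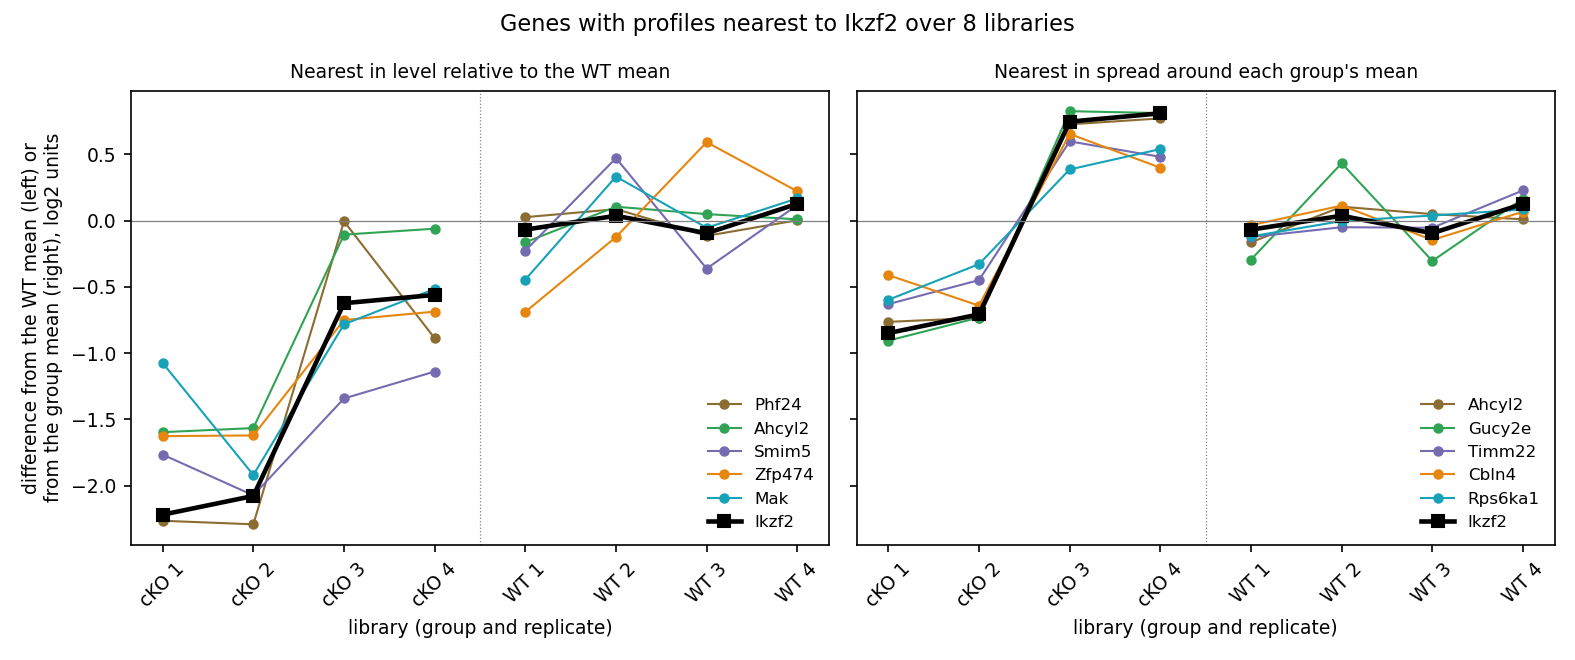
Log2 values of Ikzf2 (black) and of the 5 nearest genes in each library, relative to each gene's WT mean (left) or to the mean of its own group (right), with cKO replicates before WT replicates and lines that only join the points of a group. The genes were chosen for this likeness; on the right, cKO replicates 1 and 2 lie below and 3 and 4 above the group mean for all 6 genes.

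No gene of the partners of Ikaros proteins was called, which says little because very few genes of any kind were. Of 26 genes in 3 lists, 0 passed limma with an adjusted p under 0.05, where 0.0191% of all genes tested did. In limma-voom 0 passed, where 0.0153% did. At an unadjusted limma p under 0.05 there were 2, both higher in cKO. As a share, the 2 are near the 8.67% of all genes that passed at this p in either direction. They are above the 4.07% that passed with cKO higher, and nothing is read from 2 genes. NuRD had 12 of 15 genes with a positive log2 fold change and a median of 0.096, where the median over all genes tested was −0.018. Under quantile normalization the NuRD median was 0.023, beside 0.0082 over all genes, and without cKO replicate 4 it was 0.044. Its remodelling ATPase gene Chd4 had 8306 ± 513 normalized reads in cKO and 7381 ± 1103 in WT (SD, n = 4), and Chd3, the most abundant, had 39708 ± 2193 in cKO and 37226 ± 3267 in WT. The histone-binding subunit gene Rbbp7, singled out after its values were seen, had 6027, 6239, 5633 and 5483 normalized reads in cKO, against 4741, 4588, 4500 and 5131 in WT, without overlap (log2 fold change 0.30, SE 0.073, limma adjusted p = 0.419).

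Other partners are the corepressors CtBP and Sin3, the remodeller BRG1 and TRPS1, a relative with Ikaros-type C-terminal fingers. Their 6 genes had a median log2 fold change of 0.045, from −0.16 to 0.14, and the median was −0.0086 without WT replicate 1 and −0.0027 without cKO replicate 1. Ctbp1 had 5851 ± 529 normalized reads in cKO and 5531 ± 303 in WT (SD, n = 4), and Smarca4, which encodes BRG1, had 4730 ± 743 in cKO and 4494 ± 712 in WT. Cereblon is the ligase receptor through which drugs of the lenalidomide class degrade Ikaros and Aiolos in human cells. The 5 genes of its ligase had a median log2 fold change of 0.077, with 3665 ± 339 normalized reads in cKO and 4002 ± 251 in WT for Crbn and 7975 ± 524 in cKO and 6756 ± 686 in WT for the adaptor gene Ddb1 (log2 fold change 0.24, SE 0.087, limma adjusted p = 0.515).

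**Figure D4:**
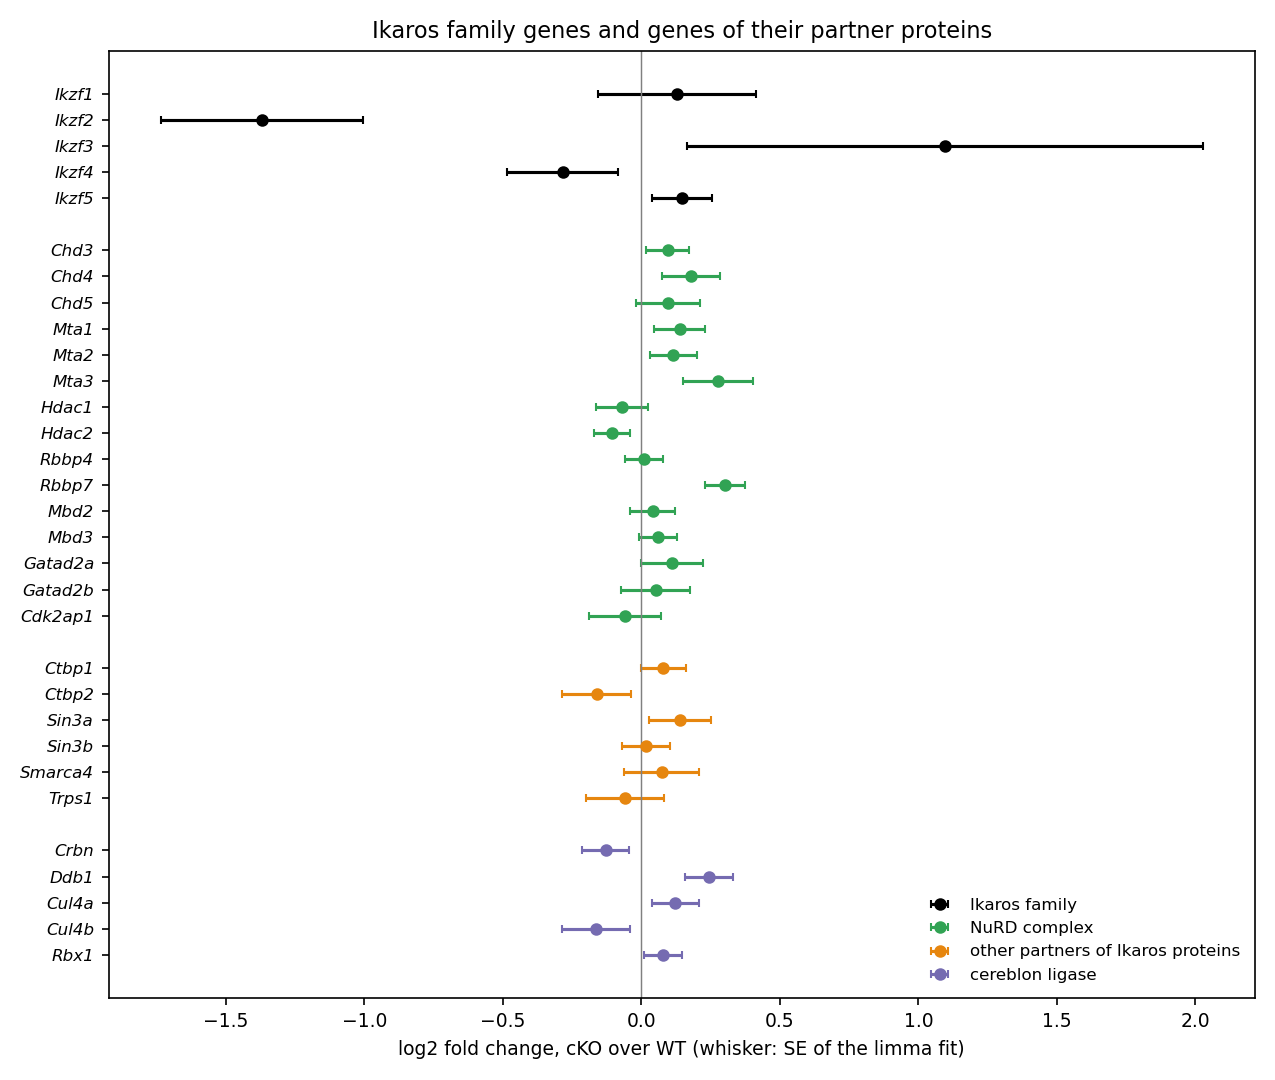
Log2 fold change of cKO over WT with the SE of the limma fit, for the 5 Ikaros family genes and for 26 genes of partner proteins in 3 lists. Ikzf2 lies at −1.37, whereas the 26 partner genes lie between −0.16 and 0.30.

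Markers of the cells that could carry Ikaros family transcripts were set beside the family. Of 82 marker genes tested in 9 lists, 0 passed limma with an adjusted p under 0.05, where 0.0191% of all genes did. In limma-voom 0 passed, where 0.0153% did. At an unadjusted limma p under 0.05 there were 9, 6 of them higher and 3 lower in cKO. Of all genes, 8.67% passed at this unadjusted p, 4.07% higher and 4.6% lower. CA1 pyramidal markers had a median log2 fold change of −0.029 (4 of 10 positive), which turned positive without WT replicate 2 (0.13), WT replicate 3 (0.046) or cKO replicate 3 (0.088). Among them Fibcd1 had 5506 ± 563 normalized reads in cKO and 4378 ± 604 in WT, without overlap (limma adjusted p = 0.496), and Man1a had 3331 ± 565 in cKO and 3652 ± 269 in WT (SD, n = 4). Mpped1 had 6845, 6201, 1329 and 1717 normalized reads in cKO replicates 1 to 4, against 5550, 6981, 2438 and 1269.5 in WT replicates 1 to 4. In cKO it was thus high in the libraries in which Ikzf2 was low, and it varied as widely in WT, where Ikzf2 was steady. Medium spiny neuron markers, which mark the striatum, had a median of −0.14 (5 of 14 positive), which was 0.13 without WT replicate 4 and −0.48 without WT replicate 1, and summed levels of 5697 to 7932 normalized reads in cKO and 4837 to 8884 in WT.

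Medians were 0.16 for interneuron markers (9 of 10 positive), 0.13 for microglia markers (8 of 11) and 0.17 for lymphocyte markers (6 of 11 tested). The median over all genes tested was −0.018. Genes of a list were read in the same 8 libraries, so counts of positive genes are not independent observations. The lymphocyte median was −0.14 without cKO replicate 2 and −0.18 with array weights. Oligodendrocyte markers had a median of −0.27 and choroid plexus markers one of −0.72, with 0 of 8 and 0 of 7 positive. The choroid plexus median rested on single libraries, at −0.015 without WT replicate 2 and −1.39 without WT replicate 1. Astrocyte and endothelial markers had medians of 0.018 and −0.038. Without WT replicate 2 these were −0.069 and 0.0034, and the endothelial median was 0.0010 without WT replicate 3. Summed levels of oligodendrocyte markers were 95189 to 147005 normalized reads in cKO and 116789 to 172143 in WT, and those of choroid plexus markers 10455 to 46884 in cKO and 5165 to 163239 in WT. By library, the choroid plexus sum was 34886, 13706, 46884 and 10455 in cKO replicates 1 to 4, and the CA1 sum was 31447, 26023, 22706 and 27218. Neither sum was split into the pairs in which Ikzf2 was low and high. The NuRD sum was lower in cKO replicates 1 and 2 (90159 and 87582) than in 3 and 4 (94164 and 95298). So was the sum of the other partners, though narrowly (18446 in cKO replicate 1 against 18486 in cKO replicate 3), but not that of the cereblon ligase. Among markers, the interneuron sum was lower in cKO replicates 1 and 2 (39158 and 36404) than in 3 and 4 (40482 and 45278). The endothelial sum went the other way, with 6582 and 7809 against 5889 and 6343. The remaining marker sums overlapped between the pairs. This split was looked for in every list after the values were seen. With 4 values a split in either direction is often met by chance. Its share over all genes was not computed, so nothing is read from it. The part of these cells, and of what moved Mpped1, in the Ikzf2 values was not tested.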

How the data were processed

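Tissue of hippocampal CA1 was extracted with Trizol and sequenced from stranded mRNA libraries, per the labels' protocols. The tools named, per the submitters' processing notes, are DESeq2, STAR and StringTie, and the build is mm9; role, version and annotation: not given in the sources used here. The authors deposited 1 table with a log2 value per gene and library. For 100% of values, 2 to the power of the value, minus 1, was a whole multiple of 1 step per library (tolerance 0.001 reads), which gave back the reads. The deposited p-value and FDR of cKO against WT are the authors' own, from a test that no source used here states. The deposited group means were not used.

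limma 3.58.1 in R 4.3.3 was fitted to the deposited log2 values of all 8 libraries (pseudocount 1, mean-variance trend, robust, no covariate) for genes that reached 1 normalized read in 4 or more libraries, with Benjamini-Hochberg adjustment over all of them and a threshold of 0.05. The fit was tested on simulated data. Members, partner lists and marker lists were chosen with earlier results of these data known. Within a list, the 4 genes with the most reads could be named, and other genes named are marked as such or belong to the family, its neighbours or its nearest profiles; Cd3d and Ms4a1 were named after their values were seen. Exon lengths, overlaps and stretches of 50 bases come from GENCODE vM21 (GRCm38), a later build than mm9, so no coordinates are printed. Intervals and floors cover counting error only. Figures were drawn with matplotlib 3.10.9.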

Additional observations from a re-analysis of the deposited data

Results flagged for a closer look

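Among 67 genes of the family, its neighbours, profiles and lists in 2 groups, 8 of 134 gene and group pairs had 1 library far from the other 3, where chance flags about 1 in 20. None of the 8 is an Ikaros family gene. Among the partners, Rbbp4 was low in cKO replicate 4 (6459 normalized reads, others 7069 to 7181). Among the markers, Fibcd1 was high in cKO replicate 1 (6350, others 5176 to 5251), Foxp1 in cKO replicate 3 (2236, others 676 to 752) and Cd8a in cKO replicate 2 (58.2, others 0 to 3.18). In WT replicate 4, Rgs9 (937, others 617 to 664) and Cd4 (72.5, others 7.11 to 12.1) were high. Sst was low in WT replicate 1 (4909, others 5373 to 5430), and Gja1 in WT replicate 2 (7593, others 9302 to 9547).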

How the results depend on the processing

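Log2 fold changes of the 5 members moved by less than 1 SD between libraries under every alternative run: no filter, a stricter filter (at least 10 normalized reads, under which Ikzf3 was not tested), quantile normalization, a pseudocount of 0.1, array weights, limma-voom, the replicate block and leaving out each library. Ikzf2 ranged from −1.64 to −1.09 without 1 library and from −1.39 to −1.25 otherwise. Ikzf1 ranged from −0.026 (without WT replicate 2) to 0.41 and Ikzf4 from −0.40 to −0.090 without 1 library. No partner or marker gene passed under any of these. The count of genes past the threshold, 5 with all libraries, was 8 with array weights, 2 with the replicate block and 3 to 7 without 1 library (3 without WT replicate 4). Deviations of same-numbered libraries correlated between −0.0047 and 0.023. Such values do not settle whether the numbers pair the samples, since a pairing need not leave a trace across all genes. Depth limits Ikzf3, which had 41 reads in all.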
